A study of Mus musculus with 6 samples.

Results

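The nuclear genes of the respiratory chain were followed in pancreatic islets of WT and Trpm7R/R mice on a high-fat diet (HFD). Members were the protein-coding genes whose symbols mark subunits of complexes I to V, namely the Nduf, Sdh, Uqcr, Cox and Atp5 genes and Cyc1, without assembly factors and pseudogenes. This gave 89 of the 41710 genes in the files, of which 40 belong to complex I, 4 to complex II, 9 to complex III, 18 to complex IV and 18 to complex V (ATP synthase). Trpm7R/R mice carry a knock-in mutation, present in every cell type, that inactivates the kinase of TRPM7, a channel for divalent cations fused to a kinase. Both genotypes had received the HFD, with 45% of its energy from fat, for 16 weeks from 8 weeks of age. There were 3 WT libraries (replicates 1, 2 and 3) and 3 Trpm7R/R libraries (replicates 4, 6 and 8), and the study counts as many mice as libraries in each genotype, although the labels do not tie a library to a mouse.

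The respiratory chain sits in the inner mitochondrial membrane. Complex I takes electrons from NADH and complex II from succinate, ubiquinone carries them to complex III and cytochrome c to complex IV, which reduces oxygen. Complexes I, III and IV pump protons, and ATP synthase uses the gradient to make ATP. In pancreatic beta cells the ATP made after a meal closes potassium channels and so starts the release of insulin. Most subunits are encoded in the nucleus, where the genes share regulators such as NRF1, GABP and YY1, and a few core subunits are encoded on the mitochondrial chromosome.

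Libraries held between 17213285 and 20307909 mapped reads, as implied by the RPKM values. Introns held between 75.7% and 84.2% of the reads in genes. Few reads came from spliced RNA. Exon-exon reads, which cross a splice junction, of nuclear protein-coding genes took, of all mapped reads, 0.146% ± 0.0520 in WT and 0.0442% ± 0.00926 in Trpm7R/R (SD, n = 3 libraries each), with every Trpm7R/R library below every WT library (2-sided exact permutation test, p = 0.1, the smallest that 3 against 3 allows). This share leaves out 11 predicted genes whose read density resembles that of satellite repeats, a choice made after their values were seen. With them it was 0.685% ± 0.106 in WT and 0.599% ± 0.0398 in Trpm7R/R (SD, n = 3 each), and the genotypes overlapped (2-sided exact permutation test, p = 0.3). In each library the median density of intron reads over 5181 autosomal genes with long introns is called the background. Islet hormone genes define the tissue, and the list of 9 used here also holds the granin Chga. They had median exon densities of 303 to 544 times the background in the WT libraries and of 80.5 to 156 times in the Trpm7R/R libraries. The intron density of Y-linked genes was 0.0162 and 0.0143 of that of autosomes in Trpm7R/R replicates 6 and 8, and 0.286 to 0.443 of it in the remaining libraries. The labels give no sex, and by these reads only the Trpm7R/R group holds libraries of female mice, so that sex and genotype cannot be told apart in full. The mutation leaves the Trpm7 transcript in place, so its exon reads, which numbered 97, 65 and 53 in WT and 35, 76 and 85 in Trpm7R/R, do not check the labels.

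Over the 89 genes together, exon reads and spliced reads were fewer in Trpm7R/R islets and intron reads were not. Exon reads summed to 1960, 2085 and 1373 in WT replicates 1, 2 and 3 and to 889, 589 and 873 in Trpm7R/R replicates 4, 6 and 8. Exon-exon reads summed to 651, 763 and 455 in WT and to 172, 97 and 212 in Trpm7R/R. Each Trpm7R/R library was below each WT library in both sums, by 2.30-fold and 3.89-fold between the group means. Intron reads of the same genes summed to 4193, 4119 and 4153 in WT and to 4033, 3727 and 4690 in Trpm7R/R. The intron sums of the genotypes overlapped, and their means differed by a factor of 1.00. Exon-exon reads were 34.3% ± 1.97 of the exon reads of these genes in WT and 20.03% ± 3.95 in Trpm7R/R (SD, n = 3 each). In bulk islets, fewer cells of a type and less RNA per cell cannot be told apart.

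**Figure D1:**
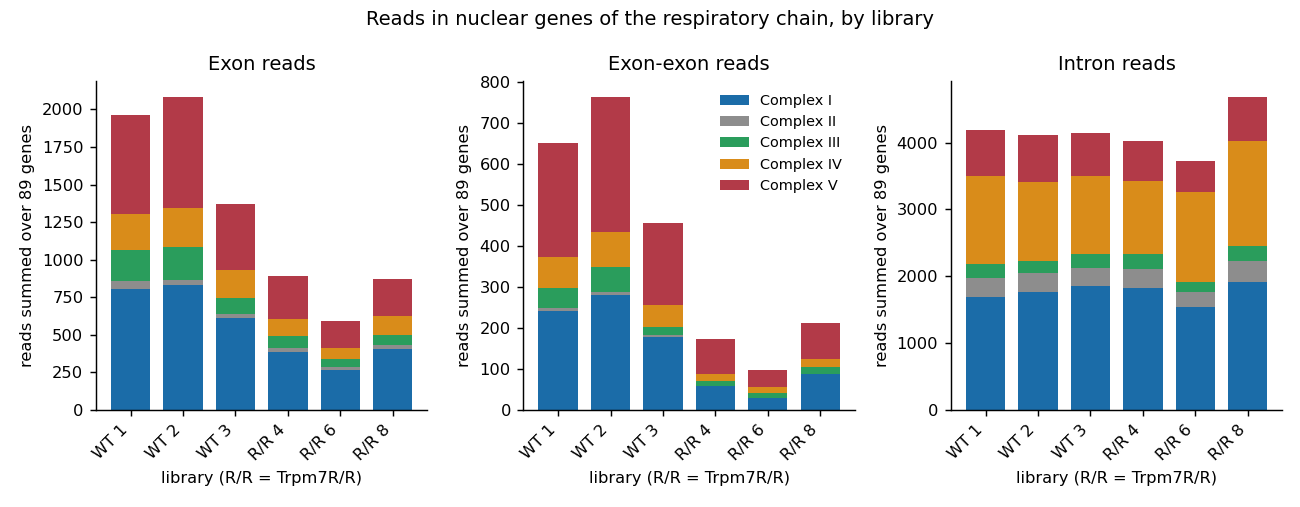
Reads in the 89 nuclear genes of the respiratory chain in each library (x axis: WT replicates 1, 2 and 3 and Trpm7R/R replicates 4, 6 and 8), stacked by complex, for exon, exon-exon and intron reads (y axes: summed reads). The Trpm7R/R bars lie below the WT bars for exon reads (589 to 889 against 1373 to 2085) and exon-exon reads (97 to 212 against 455 to 763), while intron reads overlap.

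Mean exon reads were lower in Trpm7R/R in every complex, although complex II was near the background. Mean exon reads were 746 in WT and 352 in Trpm7R/R for complex I, 39.0 and 22.0 for complex II, and 178 and 68.0 for complex III. They were 231 and 105 for complex IV and 612 and 237 for ATP synthase. The ratio of WT to Trpm7R/R was therefore 2.12, 1.77, 2.61, 2.21 and 2.58 for complexes I to V. In each complex the highest Trpm7R/R library was below the lowest WT library, in complex II with only 26 against 27 reads. Exon reads of complex II were 0.808 in WT and 0.449 in Trpm7R/R of those predicted from the background density. The ratio of exon-exon reads was 4.05 for complex I, 3.36 for complex III, 4.10 for complex IV and 3.75 for complex V. Complex II had only 4 to 9 exon-exon reads per WT library and at most 1 per Trpm7R/R library.

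Set against the background, the exon reads of these genes stood above it in WT and at about its level in Trpm7R/R. Over the 89 genes, the ratio of observed exon reads to those predicted from the background density was 2.30 ± 0.468 in WT and 0.984 ± 0.0901 in Trpm7R/R (SD, n = 3 each). Of the 89 genes, 17 had at least 5 times the background density in the WT mean and 1 in the Trpm7R/R mean. The median density was 2.10 times the background in WT and 0.760 times in Trpm7R/R. Atp5k, the e subunit of ATP synthase, had the highest exon density of the 89 genes, at 21.5 times the background in WT and 7.19 times in Trpm7R/R, and was the 1 gene above 5 times in Trpm7R/R. Ndufa2, an accessory subunit of complex I, stood at 16.0 and 4.30 times, Uqcr11, a small subunit of complex III, at 13.4 and 4.36 times, and Atp5e, the epsilon subunit of ATP synthase, at 10.0 and 3.64 times. Genes under 2 times the background numbered 42 in WT and 79 in Trpm7R/R, and for these the exon density alone does not separate RNA of the gene from background reads, while exon-exon reads can.

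**Figure D2:**
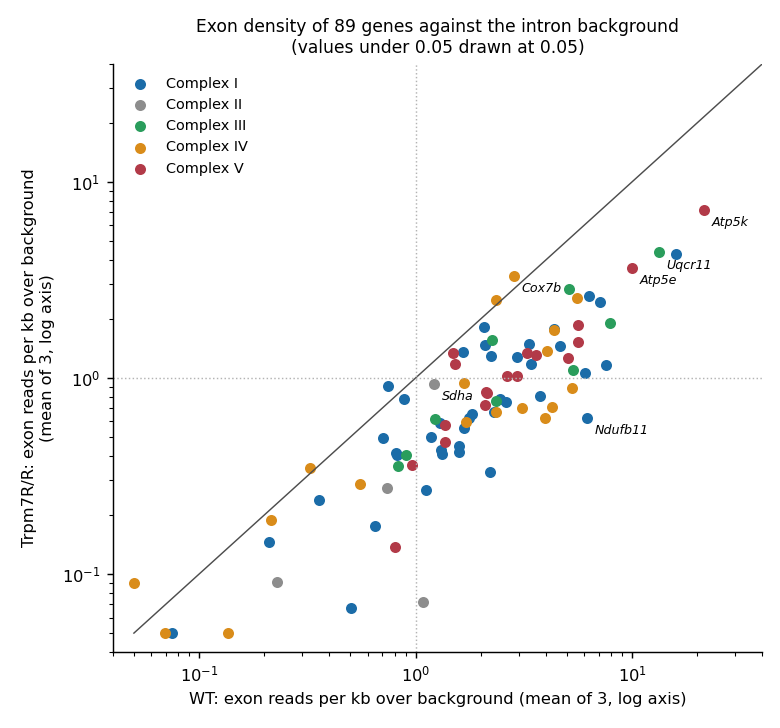
Exon reads per kilobase over the intron background for each of the 89 genes, as the mean of 3 WT libraries (x axis, log scale) and of 3 Trpm7R/R libraries (y axis, log scale), coloured by complex, with the line of equality and dotted lines at the background. Most points lie below the line of equality, with a median of 2.10 in WT and 0.760 in Trpm7R/R.

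Exon reads were then tested gene by gene in edgeR (quasi-likelihood, TMM scaling). Fold changes are Trpm7R/R over WT. Their standard error (SE) was derived as the absolute log2 fold change over the square root of edgeR's F statistic. A call needed both 2-fold and an adjusted p, over all genes of the fit, no higher than 0.05. With every gene that had a read in the fit, 31854 genes in all, 83 of the 89 members had a negative log2 fold change (45.1% of all genes did). With an unadjusted p under 0.05, 52 members were lower (3.55% of all genes) and 0 higher (2.09%). In this fit 0 members were called higher (0.0314% of all genes) and 7 lower (0.411%), namely Atp5c1, Ndufc1, Uqcrh, Ndufa13, Atp5h, Ndufa2 and Ndufb11. The median log2 fold change was −1.32 over the 89 genes and 0.08 over all genes. In 52 members every Trpm7R/R library was below every WT library after scaling (6.53% of all genes), and in 0 members the reverse held (3.13%).

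With the filter on low counts, the main fit held 11674 genes and 46 of the 89 members, many of which could pass through their WT libraries alone. In this fit 0 members were called (3 of all genes were called lower, 0.0257%, and 0 higher), while 33 had an unadjusted p under 0.05 and were lower (4.57% of all genes) and 0 were higher (1.14%). Their fold changes were negative in 43 (49.3% of all genes), and in 30 every Trpm7R/R library was below every WT library (6.84%). DESeq2's Wald test called 4 members lower (97 of all 11674 genes), limma-voom 0 (2 of all genes) and edgeR's likelihood ratio test 12 (161 of all genes). Members lower at this p numbered 12 of 18 tested in complex I, 0 of 1 in complex II, 3 of 4 in complex III, 6 of 8 in complex IV and 12 of 15 in ATP synthase. Their median log2 fold change was −1.41, against 0.01 over all genes, with a range from −3.14 to 0.33. Without Trpm7R/R replicate 4 the number of members called was 9 of 58 tested, all lower. It sets the WT libraries against replicates 6 and 8 alone, which have few Y-linked reads, so sex and genotype cannot be told apart there. Of all 12660 genes in that fit, 151 were called lower and 45 higher. In data simulated from these libraries edgeR found 74.7% of the genes altered 4-fold and 3.23% of those altered 2-fold.

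**Figure D3:**
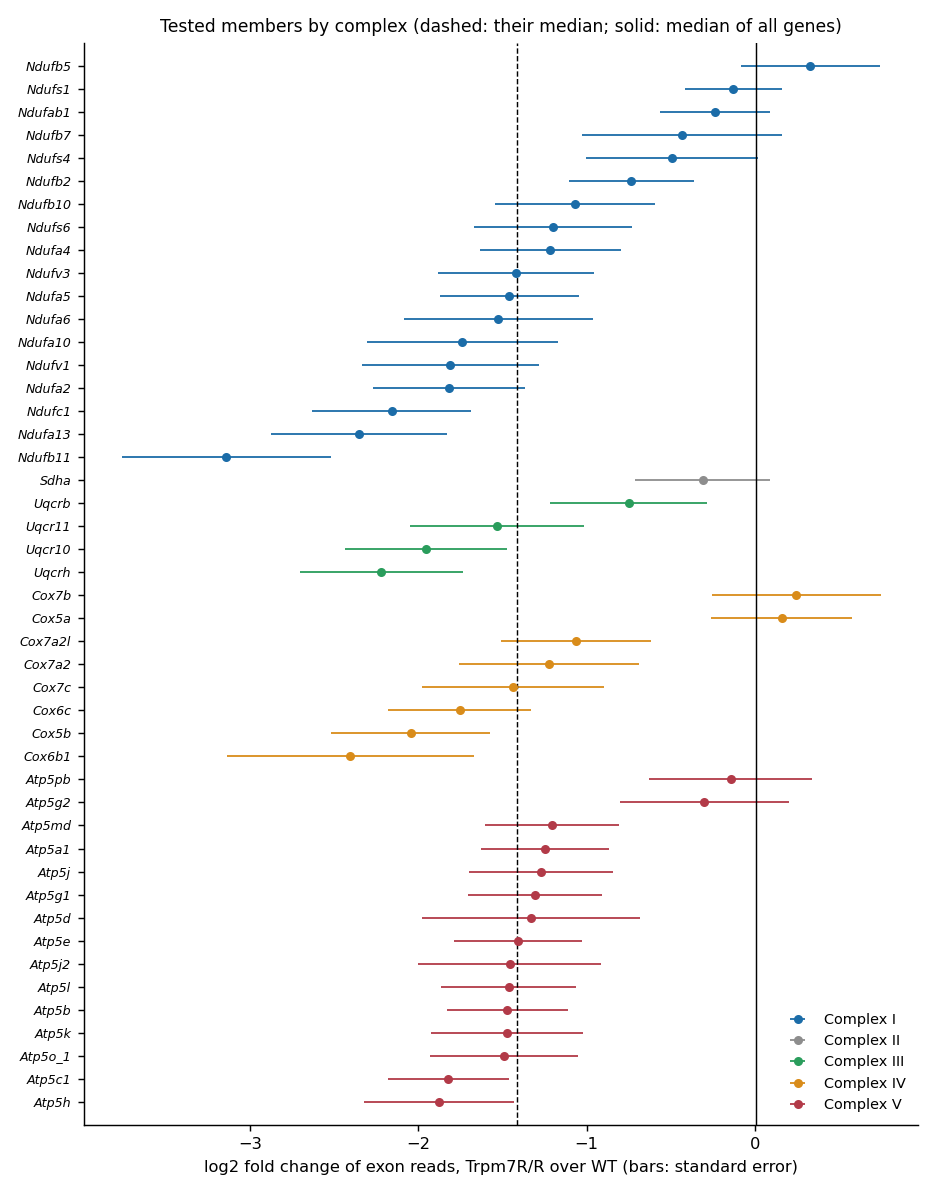
Log2 fold change of exon reads, Trpm7R/R over WT (x axis), for the 46 tested members in order within each complex (y axis). Bars are standard errors derived from edgeR's F statistic. The dashed line is their median (−1.41) and the solid line the median of all 11674 genes (0.01), and 43 of the 46 points lie below 0.

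The complex I genes with the smallest p were accessory subunits, which surround the catalytic core. Ndufb11, an X-linked accessory subunit, had 34, 25 and 16 exon reads in WT and 1, 1 and 6 in Trpm7R/R. All Trpm7R/R libraries were below all WT libraries (log2 fold change −3.14, SE 0.62, edgeR adjusted p = 0.0592). Ndufc1 had 30, 29 and 16 exon reads in WT and 4, 5 and 7 in Trpm7R/R, a log2 fold change of −2.16 (SE 0.47, edgeR adjusted p = 0.0978). Ndufa13, an accessory subunit also known as GRIM-19, had 28, 44 and 28 exon reads in WT and 8, 1 and 10 in Trpm7R/R. Its log2 fold change was −2.35 (SE 0.52, edgeR adjusted p = 0.0985), and the groups again did not overlap.

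Further accessory subunits of complex I had lower counts of the same kind. Ndufa2 had 31, 64 and 26 exon reads in WT and 8, 9 and 16 in Trpm7R/R, without overlap (log2 fold change −1.82, edgeR adjusted p = 0.146). Ndufa5 had 23, 47 and 27 exon reads in WT and 12, 9 and 13 in Trpm7R/R, with a log2 fold change of −1.46 (edgeR adjusted p = 0.234). The X-linked Ndufa1 had too few reads for the main fit, at 11, 18 and 13 in WT and 4, 0 and 3 in Trpm7R/R. Ndufb1 likewise had 15, 14 and 5 exon reads in WT and 1, 2 and 2 in Trpm7R/R, again with no overlap. Ndufa4, which carries a complex I name but purifies with complex IV, had 58, 32 and 27 exon reads in WT and 22, 11 and 16 in Trpm7R/R, a log2 fold change of −1.22 (edgeR adjusted p = 0.437). Its isoform Ndufa4l2 had 3 reads in WT replicate 2 and at most 1 in any other library. Ndufb2, with Ndufa5 the complex I gene with the most exon-exon reads, differed less. Its log2 fold change was −0.73 in exon reads and −0.56 in the fit of exon-exon reads described below. Ndufb9 was among the members with the lowest share of exon reads placed uniquely.

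Of the core subunits of complex I, which carry the flavin and the iron-sulfur clusters, only Ndufv1 and Ndufs1 passed the filter of the main fit. Ndufv1, the subunit that binds NADH and flavin, had 11, 27 and 17 exon reads in WT and 6, 3 and 6 in Trpm7R/R, a log2 fold change of −1.81 (edgeR adjusted p = 0.251). Ndufs1, the largest subunit, had 81, 70 and 70 exon reads in WT and 56, 63 and 77 in Trpm7R/R. Its groups overlapped, its log2 fold change was −0.13 (SE 0.29), and it had 1 exon-exon read over all 6 libraries, so that nearly none of its exon reads were shown to be spliced. The core subunit Ndufs3 was tested only in the fit of exon-exon reads described below, with a log2 fold change of −2.24. Ndufab1, the mitochondrial acyl carrier protein and an accessory subunit, had 46, 39 and 65 exon reads in WT and 44, 37 and 43 in Trpm7R/R (log2 fold change −0.24). Ndufb5, an accessory subunit, was the tested complex I gene with more reads in Trpm7R/R, at 24, 18 and 18 against 14, 12 and 23 in WT, with overlap and a log2 fold change of 0.33 (SE 0.41).

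Complex II, which is also an enzyme of the citric acid cycle, was close to the limit of detection. Sdha, the flavoprotein, had 27, 22 and 18 exon reads in WT and 20, 10 and 23 in Trpm7R/R. The groups overlapped, with a log2 fold change of −0.31 (SE 0.40) and densities of 1.22 and 0.945 times the background. Sdhb, the iron-sulfur subunit, had 10, 9 and 3 exon reads in WT and 4, 3 and 1 in Trpm7R/R, of which 6, 7 and 2 and then 0, 1 and 0 were exon-exon reads. The membrane anchors Sdhc and Sdhd had 6, 1 and 3 and 12, 3 and 3 exon reads in WT and at most 2 in any Trpm7R/R library, with 0 exon-exon reads throughout.

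In complex III the small subunits had the highest exon densities, at 5.09 to 13.4 times the background in WT for Uqcrb, Uqcrh, Uqcr10 and Uqcr11. Uqcrh, the hinge protein next to cytochrome c1, had 39, 33 and 16 exon reads in WT and 4, 6 and 8 in Trpm7R/R. The groups did not overlap, with a log2 fold change of −2.22 (SE 0.49, edgeR adjusted p = 0.0978). Uqcr10 had 17, 28 and 16 exon reads in WT and 5, 4 and 6 in Trpm7R/R, a log2 fold change of −1.95 (edgeR adjusted p = 0.138). Uqcr11 had 47, 55 and 12 exon reads in WT and 17, 8 and 13 in Trpm7R/R. Its WT replicate 3 lay within the range of Trpm7R/R, and its log2 fold change was −1.53 (edgeR adjusted p = 0.415). Uqcrb, with 18, 30 and 11 exon reads in WT and 14, 7 and 13 in Trpm7R/R, overlapped and had a log2 fold change of −0.75. Uqcrq, another small subunit, had 35, 12 and 11 exon reads in WT and 6, 4 and 9 in Trpm7R/R, too few for the main fit.
Other subunits of complex III had low counts. Uqcrfs1, the Rieske iron-sulfur protein, had 18, 11 and 12 exon reads in WT and 10, 9 and 9 in Trpm7R/R, without overlap, and 0 exon-exon reads. Cyc1, cytochrome c1, had 13, 14 and 8 exon reads in WT and 9, 4 and 5 in Trpm7R/R, and Uqcrc2, a core protein, had 10, 8 and 10 in WT and 5, 4 and 3 in Trpm7R/R. Uqcrc2 is among the 4 members with under 80% of exon reads placed uniquely.

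In complex IV several ubiquitous subunits had fewer reads in Trpm7R/R, and most isoforms specific to other tissues were close to 0 in both genotypes, with the muscle form Cox6a2 as the exception. Cox5b had 23, 27 and 15 exon reads in WT and 6, 4 and 5 in Trpm7R/R, with no overlap. Its log2 fold change was −2.04 (SE 0.47, edgeR adjusted p = 0.108), and it too had under 80% of its reads placed uniquely. Cox6c had 24, 52 and 34 exon reads in WT and 10, 12 and 9 in Trpm7R/R, a log2 fold change of −1.76 (edgeR adjusted p = 0.135). Cox6b1 had 24, 11 and 15 exon reads in WT and 7, 0 and 2 in Trpm7R/R, a log2 fold change of −2.40 (SE 0.73, edgeR adjusted p = 0.303). In Cox6c and Cox6b1 alike the highest Trpm7R/R library was below the lowest WT library. Cox7c had 23, 25 and 13 exon reads in WT and 7, 2 and 13 in Trpm7R/R, where replicate 8 reached WT replicate 3.

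Within the isoform pairs of complex IV, the ubiquitous form had the higher exon density, at 1.70 times the background in WT for Cox4i1, 4.27 for Cox6a1, 4.36 for Cox7a2 and 3.96 for Cox8a. The WT density was 0.00 for Cox4i2, 1.67 for Cox6a2, 0.14 for Cox7a1, 0.21 for Cox8b and 0.33 for Cox8c. In reads, Cox4i1 had 13, 10 and 12 in WT and 7, 1 and 5 in Trpm7R/R, while its lung isoform Cox4i2 had 1 read over all libraries. Cox6a1 had 19, 10 and 11 in WT and 2, 1 and 4 in Trpm7R/R, and its muscle isoform Cox6a2 had 3, 11 and 1 and then 4, 1 and 4. Cox7a2 had 28, 11 and 16 in WT and 10, 3 and 10 in Trpm7R/R, and Cox7a2l, a factor of supercomplex assembly, had 34, 58 and 17 and then 15, 16 and 19. Cox7a1, the muscle form, had 1 read in all. Cox8a had 21, 6 and 6 in WT and 2, 2 and 1 in Trpm7R/R, and Cox6b2, Cox8b and Cox8c had 0 or 1 read in each library. The muscle and brown fat genes Ckm, Acta1, Myh7 and Ucp1 had 3 exon-exon reads in each genotype.
A pair of complex IV genes had more exon reads in Trpm7R/R. The X-linked Cox7b had 16, 14 and 16 in WT and 6, 19 and 28 in Trpm7R/R, where replicates 6 and 8, those with few Y-linked reads, were above every WT library (log2 fold change 0.25, SE 0.50). Cox5a had 13, 24 and 28 in WT and 33, 16 and 22 in Trpm7R/R, with a log2 fold change of 0.16 (SE 0.42). Both overlapped between genotypes. Their raw exon-exon reads, 8 and 8 in WT and 5 and 1 in Trpm7R/R, were fewer in Trpm7R/R. They are too few to set against the drop in spliced reads of all genes.

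ATP synthase gave the most spliced reads of the 5 complexes. Atp5c1, the gamma subunit that forms the rotating stalk, had 52, 52 and 39 exon reads in WT and 15, 11 and 13 in Trpm7R/R. Its exon-exon reads were 32, 35 and 20 in WT and 3, 3 and 4 in Trpm7R/R, so the groups were apart in both kinds of read. The log2 fold change of its exon reads was −1.82 (SE 0.36, edgeR adjusted p = 0.0585), the smallest adjusted p of the 46 tested members. Atp5h, the d subunit of the peripheral stalk, had 35, 35 and 28 exon reads in WT and 11, 3 and 12 in Trpm7R/R, a log2 fold change of −1.88 (edgeR adjusted p = 0.127).
Atp5b, the catalytic beta subunit, had 69, 59 and 38 exon reads in WT and 24, 15 and 19 in Trpm7R/R, a log2 fold change of −1.47 (SE 0.36, edgeR adjusted p = 0.137). Atp5e had 73, 116 and 44 exon reads in WT and 33, 28 and 23 in Trpm7R/R, and Atp5k had 29, 92 and 53 in WT and 28, 10 and 23 in Trpm7R/R. In Atp5b, Atp5e and Atp5k every Trpm7R/R library was below every WT library, although Atp5k replicate 4 was within 1 read of WT replicate 1. Atp5e and Atp5k had log2 fold changes of −1.41 and −1.48 (edgeR adjusted p = 0.199 and 0.303).

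The c subunits, which form the ring in the membrane, come from a set of genes that encode the same mature protein. Atp5g1 had 77, 56 and 41 exon reads in WT and 33, 11 and 25 in Trpm7R/R, without overlap (log2 fold change −1.31, edgeR adjusted p = 0.299). Atp5g2 had 13, 13 and 8 in WT and 9, 5 and 13 in Trpm7R/R, with overlap and a log2 fold change of −0.30. Atp5g3 had 5, 10 and 8 in WT and 3, 1 and 0 in Trpm7R/R. The files list the OSCP subunit as a pair of overlapping entries on chromosome 16, Atp5o_1 and Atp5o_2, that share reads. Atp5o_1 had 0.00% and Atp5o_2 30.3% of its exon reads placed uniquely, so the log2 fold change of Atp5o_1, −1.49 (edgeR adjusted p = 0.271), describes the pair. Of the 89 members, 74 had all their exon reads placed uniquely and 4 had under 80%.

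**Figure D4:**
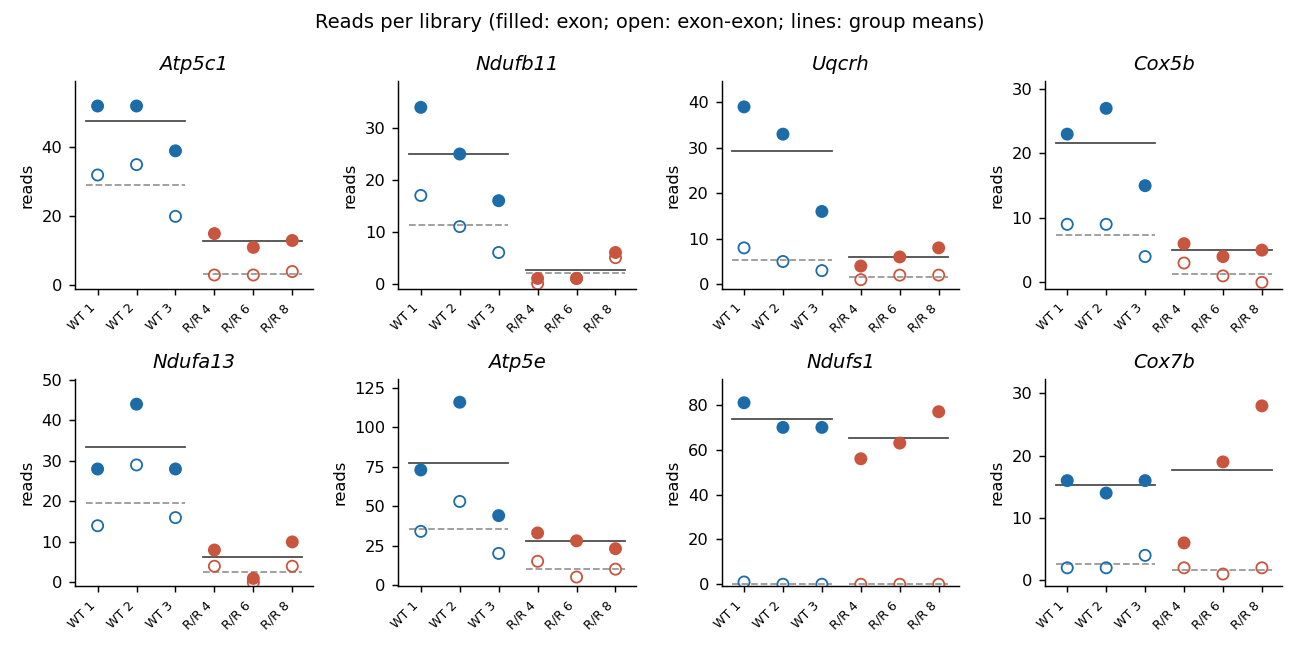
Exon reads (filled) and exon-exon reads (open) per library for 8 members (y axes: reads), with WT replicates 1, 2 and 3 and Trpm7R/R replicates 4, 6 and 8 on the x axes and lines at the group means (solid for exon, dashed for exon-exon). Atp5c1, Ndufb11, Uqcrh, Cox5b, Ndufa13 and Atp5e are lower in every Trpm7R/R library, while Ndufs1 and Cox7b overlap and hold few exon-exon reads.

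Summed over the groups, exon reads were fewer in Trpm7R/R for 83 of the 89 members, more for 4 and equal for 2. Exon-exon reads were fewer for 73, more for 2 and equal for 14, of which 11 had none in any library. These are raw reads, and the same tally was not made over all genes. Exon-exon reads of all nuclear protein-coding genes outside the satellite-like genes were 3.31 times as many in WT as in Trpm7R/R.

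The second question was whether these genes differed from other spliced RNA of the same libraries. Of the exon-exon reads of nuclear protein-coding genes without the satellite-like genes, the members held 2.38% ± 0.316 in WT and 1.92% ± 0.248 in Trpm7R/R (SD, n = 3 each). Without the hormone genes Ins1, Ins2, Iapp, Gcg, Sst, Ppy and Pyy the shares were 4.15% ± 0.516 and 2.61% ± 0.586 (SD, n = 3 each). In both, every Trpm7R/R library lay below every WT library for the members together. By complex, the share overlapped between genotypes in complexes I, III, IV and V with the hormone genes and in complex III without them, where complex III held 0.156% and 0.161% with them. The exon-exon reads of all these genes together were 3.31 times as many in WT as in Trpm7R/R (1.15 times with the satellite-like genes), those of cytosolic ribosomal protein genes 3.41 times, those of the members 3.89 times and those of islet hormone genes 5.41 times.

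Exon-exon reads were also tested in edgeR, scaled among themselves by TMM over 563 genes, 36 of them members. The test called 0 members, against 0.178% of all genes called lower and 2.66% called higher. With an unadjusted p under 0.05, 3 members were lower (5.51% of all genes) and 1 higher (11.7%), and limma-voom and DESeq2's Wald test called 0 members too. The median log2 fold change was −0.52 over the tested members and −0.17 over all genes, and in 6 members the Trpm7R/R libraries all lay below the WT libraries after scaling (12.1% of all genes). Without the filter, 78 members could be fitted, of which 22 were lower with an unadjusted p under 0.05 (2.76% of all genes), 0 were higher (0.796%) and 0 were called (0.0436% of all genes lower). There the Trpm7R/R libraries all lay below the WT libraries in 11 members (2.88%) and above them in 2 (2.04%), and the median was −1.24, against −0.46 over all genes. With scaling to mapped reads in place of TMM, 22 members were called lower, as were 249 of all 563 genes. The median was −1.97 over the members and −1.67 over all genes.
Atp5c1 had a log2 fold change of −1.61 on this scale (SE 0.56, edgeR adjusted p = 0.102). Ndufa1 had 8, 7 and 6 exon-exon reads in WT and 0, 0 and 1 in Trpm7R/R, a log2 fold change of −2.70 (SE 1.11, edgeR adjusted p = 0.168). Ndufa13 had 14, 29 and 16 in WT and 4, 0 and 4 in Trpm7R/R, a log2 fold change of −1.37 (SE 0.66, edgeR adjusted p = 0.281). Atp5g2 went the other way, with 3, 5 and 0 in WT and 3, 2 and 5 in Trpm7R/R, and its log2 fold change of 1.79 (SE 0.78, edgeR adjusted p = 0.212) is relative to the other spliced reads of each library. Atp5k, with 27, 88 and 52 exon-exon reads in WT and 22, 10 and 18 in Trpm7R/R, the most of any member, had a log2 fold change of −0.24 (SE 0.46) on this scale.

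Other genes of mitochondria differed less between genotypes in exon reads than the members did. Of the 19 tested genes of 48 for complex assembly factors, 2 had an unadjusted p under 0.05 and were lower, 0 were higher, with a median log2 fold change of −0.23. Uqcc2, an assembly factor of complex III, had the smallest p of these (log2 fold change −1.64, edgeR adjusted p = 0.148). Pyruvate dehydrogenase and citric acid cycle genes had 1 of 17 lower and a median of −0.10, and Mdh1, the cytosolic malate dehydrogenase, was that gene (log2 fold change −1.04, edgeR adjusted p = 0.702). Carriers, shuttles and cytochrome c had 2 of 13 lower and a median of −0.32, led by Etfb, a subunit of the electron transfer flavoprotein (log2 fold change −1.80, edgeR adjusted p = 0.290). Mitochondrial ribosomal protein genes had 1 of 35 lower and a median of 0.04, and the regulators of respiratory chain genes, among them Nrf1, Gabpa and Yy1, had 0 of 11 lower and a median of 0.05.
These lists lay near the background in both genotypes. Their median exon densities were between 0.339 and 1.11 times it in the 6 libraries. Their exon-exon reads, where present, were also fewer in Trpm7R/R, at 207 and 59 summed over the 3 libraries of each genotype for assembly factors, 219 and 64 for mitochondrial ribosomal proteins, and 110 and 38 for pyruvate dehydrogenase and the citric acid cycle. The regulators had 28 and 36.

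Cytosolic ribosomal protein genes and islet hormone genes, whose median exon densities stood above the background, were as low as the members or lower. The median density of the ribosomal protein genes was 5.53 to 10.0 times the background in the WT libraries and 2.71 to 2.83 times in the Trpm7R/R libraries. Of 67 tested ribosomal protein genes, 61 had an unadjusted p under 0.05, all of them lower, with a median log2 fold change of −1.46. Of the 8 tested genes of the hormone list, Chga among them, 8 were lower at this p, with a median of −2.01. Exon reads of the 13 protein-coding genes of the mitochondrial chromosome numbered 74231, 141169 and 118499 in WT and 93547, 79897 and 85235 in Trpm7R/R, and overlapped. Among markers of other cells of the pancreas, exon-exon reads summed over a genotype were 76 in WT and 30 in Trpm7R/R for 9 acinar genes. They were 7 and 7 for 5 duct genes, 1 and 2 for 6 endothelial genes, 4 and 11 for 6 macrophage and leukocyte genes and 7 and 5 for 6 stellate and fibroblast genes. The part of cell composition, of the smaller share of spliced RNA and of sex in the members' difference was not tested, but with a term for the libraries with few Y-linked reads, which leaves WT against replicate 4, 18 members had an unadjusted p under 0.05 and were lower (12.5% of all genes) and the median was −1.16.

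**Figure D5:**
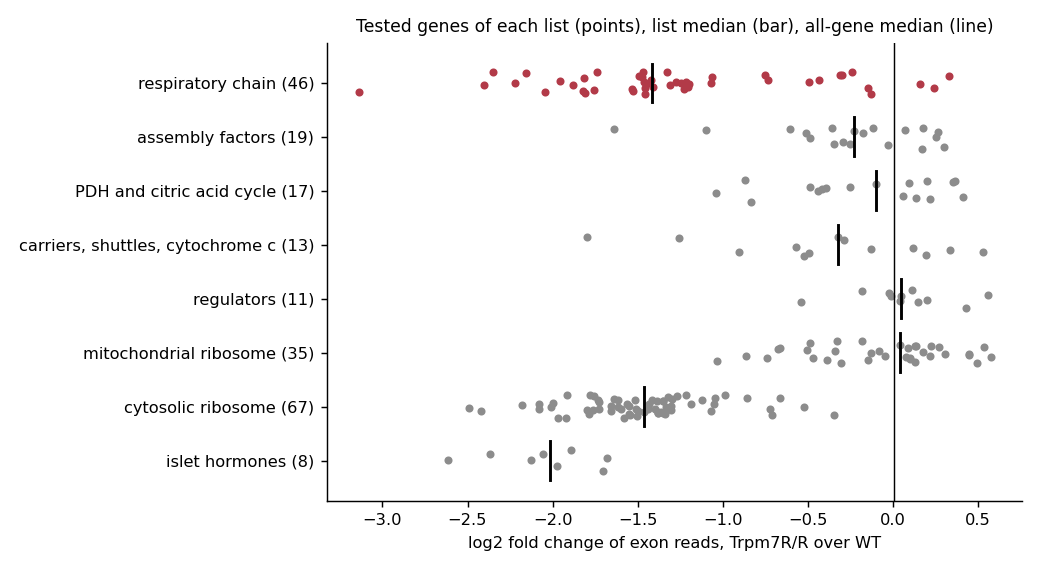
Log2 fold change of exon reads, Trpm7R/R over WT (x axis), for each tested gene of the members and of 7 other lists (y axis, with the number tested), with a bar at each list's median and a line at the median of all genes. The medians of the respiratory chain (−1.41), the cytosolic ribosome (−1.46) and the islet hormones (−2.01) lie apart from the mitochondrial lists, which lie between −0.32 and 0.05. The mitochondrial lists had median exon densities near the background, between 0.339 and 1.11 times it in the libraries.

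RefSeq promoters of build GRCm38.p6, set to run from 250 bases before to 50 after the start site, were matched by symbol for 70 of the 88 distinct member symbols. The NRF1 core, which reads GCGC, any base, TGCGC, was found on either strand in 17 of these 70 genes (24.3%) and in 7.17% of 17491 protein-coding genes. Its palindromic form, with A as the free base and counted within the core, was in 5 of 70 (7.14%) and 1.47%. The YY1 motif AAGATGGC was in 10 of 70 (14.3%) and 3.57%, and the GABP motif ACTTCCGG in 5 of 70 (7.14%) and 5.69%. A match is a run of letters and not a shown binding site. The stretches below carry the NRF1 core, in capitals as read 5′ to 3′ on the coding strand. They come from members with low and with nearly equal exon reads in Trpm7R/R. In Atp5c1, Atp5h, Ndufa5 and Sdha the core lies on the other strand, so the capitals show its reverse complement.
Atp5c1 (chr2:10080433-10080474, minus strand): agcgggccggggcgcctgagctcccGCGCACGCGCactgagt
Atp5h (chr11:115420026-115420085, minus strand): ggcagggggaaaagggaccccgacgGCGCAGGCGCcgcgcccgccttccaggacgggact
Atp5k (chr5:108434415-108434474, minus strand): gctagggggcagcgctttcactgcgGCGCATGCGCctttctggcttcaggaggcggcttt
Ndufa5 (chr6:24527691-24527741, minus strand): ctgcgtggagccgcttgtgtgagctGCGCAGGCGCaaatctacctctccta
Ndufs6 (chr13:73328483-73328523, minus strand): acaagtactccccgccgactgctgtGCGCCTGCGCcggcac
Atp5g2 (chr15:102671055-102671114, minus strand): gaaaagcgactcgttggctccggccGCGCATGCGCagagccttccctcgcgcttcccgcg
Sdha (chr13:74350261-74350320, minus strand): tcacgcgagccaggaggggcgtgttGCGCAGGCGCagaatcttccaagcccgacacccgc
The core shown began 17 bases before the end of the searched sequence in Atp5c1, 141 in Atp5h, 50 in Atp5k and 26 in Ndufa5. It began 16 bases before that end in Ndufs6, 42 in Atp5g2 and 55 in Sdha. Sdha also held cores 98 and 10 bases before that end, and the Ndufa5 core lay 190 bases before the end of another searched sequence. Printed flanks stop at that end, and whether it is the start site or lies 50 bases after it was not settled. Atp5c1, Atp5h, Atp5k, Ndufa5 and Ndufs6 had log2 fold changes of exon reads between −1.88 and −1.20 at an unadjusted p under 0.05, and Atp5g2 and Sdha, with −0.30 and −0.31, were above that p.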

How the data were processed

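The authors deposited 1 table per library with counts, namely raw reads of each gene in total, in exons, in introns and across splice junctions, with and without reads placed in several genes, beside RPKM and TPM values, which were not used here except that mapped reads were taken from the deposited RPKM. A deposited table of the authors' own comparison (fold changes and p-values) was not used. The submitters' processing notes name mm10. Since positions in the tables do not match GRCm38, only chromosomes are printed for genes. No aligner is named in the sources used here. Total exon reads were the main measure, tested with edgeR 4.0.16 (R 4.3.3; quasi-likelihood, TMM, filterByExpr with minimum count 10, genotype as the only term). Exon-exon reads used a minimum count of 3 and a minimum total of 10. P-values got Benjamini-Hochberg adjustment. The biological coefficient of variation was 0.320 for exon and 0.358 for exon-exon reads. Background genes had at least 50000 intron bases. On simulated data of 10969 genes the exon test recovered 74 of 99 genes changed 4-fold with 2 false calls, and the exon-exon test, on 455 genes, 61 of 89. No libraries were copies of each other (chi-square per gene of 4.47 to 17.2 within genotypes). Members and lists were chosen with earlier results of these data known. Named were, by rule, 50 members, among them in each complex those with the smallest p and most exon-exon reads, isoform pairs, X-linked genes and those with the lowest unique share, and others are named as values only. Of 20 citric acid cycle symbols 19 were found. DESeq2 1.42.0, limma 3.58.1, Python 3.11.15, pandas 2.3.3 and matplotlib 3.10.9 were also used.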

Additional observations from a re-analysis of the deposited data

How the results depend on the processing

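For exon reads, the count of all genes called lower (3 in the main fit) was 30 with upper quartile scaling, 23 with library size scaling, 131 without a filter, 33 with a minimum count of 20, 97 with DESeq2's Wald test, 161 with the likelihood ratio test, and 0 with total gene reads and with a sex term. The count called higher (0) was 10 without a filter and 1 with the likelihood ratio test. Members called lower (0) were 1 with library size scaling, 7 without a filter, 1 with a minimum count of 20, 4 with DESeq2's Wald test and 12 with the likelihood ratio test. Members lower at an unadjusted p under 0.05 (33) were 52 without a filter, 11 with a minimum count of 20, which tests fewer genes, and 18 with a sex term. The members' median (−1.41) was −0.50 for total gene reads, which include introns. Scaling to ribosomal protein genes moved the median of all genes to 1.37 and that of the members to 0.032, with 6 genes called lower, 7528 higher, 1 member lower, 5 members higher and 1 member lower at the unadjusted p. Scaling to exon-exon reads outside the satellite-like genes, an alternative chosen after seeing the data, moved them to 1.61 and 0.30, with 9385 genes and 7 members called higher and 1 member lower at the unadjusted p, and Ndufab1 and Sdha turned to 1.27 and 1.29. A change of scaling moves all genes by about the same amount. It therefore could not test whether the members lay below all genes.
For exon-exon reads (1 gene called lower, 15 higher, 0 members, 3 members lower at the unadjusted p, median −0.52), library size scaling gave 181 lower, 3 higher, 19 members, 25 and −1.85, and scaling by mapped reads 249, 3, 22, 27 and −1.97. The median of all genes was −0.17 in the main fit, −1.51 with library size scaling and −1.67 with scaling by mapped reads. Without a filter they were 4 lower, 0 higher, 22 members at the unadjusted p and −1.24. A minimum count of 10 called 0 lower and 0 higher, DESeq2's Wald test 7 higher with 1 member lower at the unadjusted p, limma-voom 25 higher, and the sex term 0 lower and 8 higher with 5 members lower at the unadjusted p. Leaving out each library gave, for exon reads, 0 to 151 genes lower, 0 to 45 higher and 0 to 9 members called. It gave 22 to 44 members at the unadjusted p and medians from −1.59 to −1.14. These counts were highest without Trpm7R/R replicate 4, where only Trpm7R/R libraries with few Y-linked reads remain. For exon-exon reads, leaving out each library gave 0 to 5 genes lower, 0 to 39 higher and 0 members called. Members at the unadjusted p then numbered 2 to 8, with medians from −0.93 to −0.35. No paired analysis was possible because the genotypes share no replicate numbers. Depth limited the members, of which 43 of 89 were too low for the main fit.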
